A study of Mus musculus with 17 samples.

Results

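Genes of fatty acid oxidation and targets of the nuclear receptor PPAR alpha were examined in the kidney. They were 41 listed genes, found by gene symbol among the 22558 genes used, and all 41 passed the filter on low counts in each comparison. Whole-kidney RNA came from 3 groups of male mice, 1 library per mouse. Ctrl were 5 C57BL/6 mice (genotype WT in the labels) given saline. Case were 6 mice of strain BKS.Cg-Dock7m +/+ Leprdb/J given saline. These mice, called db/db, lack a working leptin receptor and become obese and diabetic. Dapa were 6 db/db mice given dapagliflozin, which blocks renal glucose reuptake through SGLT2, by oral gavage at 1.0 mg/kg/day. Treatment ran for 6 weeks from 8 weeks of age. Ctrl and db/db mice differed in strain as well as in the receptor mutation, so strain and diabetes cannot be told apart. Among the sequenced mice, no healthy ones received the drug.

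Kidney tubules, above all the proximal tubule, draw much of their energy from fatty acids. A fatty acid enters the cell through carriers such as CD36, is joined to coenzyme A, and passes the inner mitochondrial membrane as a carnitine ester. Inside, rounds of dehydrogenation, hydration, a second dehydrogenation and thiolytic cleavage shorten the chain, while peroxisomes shorten very long and branched chains. PPAR alpha, partnered by RXR, binds DNA and, when fatty acids occupy it, switches on many of these genes. PGC-1 alpha (Ppargc1a) is one of the coactivators of PPAR alpha. The genes are therefore described by role, from the regulators through the mitochondrial and peroxisomal steps to fatty acid uptake and other PPAR alpha targets.

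Total counts per mouse ran from 13039535 to 17779635, and the mitochondrially encoded genes took 17.9% to 20.4% of them in Ctrl (median 19.3%), 19.8% to 27.3% in Case (22.4%) and 19.7% to 27.6% in Dapa (23.9%). Levels are given as FPKM (fragment counts scaled to gene length and library total), and fold changes come from the counts, scaled by TMM, as log2 fold change ± SE with a q-value (Benjamini-Hochberg over all genes tested) from edgeR's quasi-likelihood test. Of 12 proximal tubule markers, 5 were lower in Case than in Ctrl (Lrp2, Slc7a13, Slc22a6, Kap and Cyp2e1) and 9 were lower in Dapa than in Ctrl, with median log2 fold changes of -0.53 and -0.69 (of all genes tested, 6.91% were lower in Case and 14.9% in Dapa). Their summed FPKM, of which Kap was on average the largest part in each group, was 11583 to 19251 in Ctrl, 3279 to 6231 in Case and 3098 to 7905 in Dapa. Without Kap the sum was still 3881 to 4741 in Ctrl, 2333 to 3788 in Case and 2191 to 3365 in Dapa, without overlap between Ctrl and either db/db group. None of the 12 markers was at 0 in any mouse. Of other cell types, 5 of 5 erythrocyte genes were higher in both db/db groups than in Ctrl, as were 3 of 6 collecting duct genes in Case and 4 in Dapa, and 2 of 5 podocyte genes in each (of all genes tested, 6.09% were higher in Case and 14.2% in Dapa). Of 6 genes of the thick ascending limb and distal nephron, 1 was higher and 1 lower in Case and 2 were higher in Dapa. Summed adrenal markers had a median of 0.527 FPKM in Ctrl, 0.944 in Case and 5.39 in Dapa. Summed adipocyte markers stood at 91.4 FPKM in Ctrl 3, against 6.20 to 12.4 in the other Ctrl mice, 3.22 to 21.6 in Case and 5.26 to 29.7 in Dapa. Brown adipocyte markers summed to 8.31 FPKM in Ctrl 3 and 8.88 in Dapa 11, and to 1.67 or less in the other mice. Of 5 liver genes, 1 was higher in each db/db group. Summed liver markers stood at 146 FPKM in Case 1, against 62.2 to 71.2 in the other Case mice. They were 25.7 to 102 FPKM in Ctrl (highest in Ctrl 4) and 25.4 to 87.2 in Dapa (highest in Dapa 7). In whole tissue, fewer cells of a type and less RNA per cell cannot be told apart, and the part of these marker differences in the results was not tested.

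Untreated db/db kidneys held less RNA of several oxidation genes than Ctrl kidneys. In Case against Ctrl, 9 of 41 genes had a q-value under 0.05 (21.95%, against 13.0% of all 14582 genes tested). Lower in Case were 8 genes (against 6.91% of all genes): Cpt2, Crat, Acads, Etfdh, Ehhadh, Abcd3, Slc27a2 and Cd36. Higher in Case was only Ucp2 (against 6.09% of all genes). Only Cd36 also met the fold above 2 of the study's DEG rule (against 3.79% of all genes). The median log2 fold change was -0.19 over the 41 genes and 0.03 over all genes, and 33 of 41 were negative. In 6 genes the FPKM ranges of the groups did not overlap (8.43% of all genes did not).

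In Dapa against Ctrl, 20 of 41 genes passed (48.8%, against 29.1% of all 14647 genes tested), 17 lower in Dapa (14.9% of all genes) and 3 higher (14.2%). Cd36 was again the only one with a fold above 2 (7.18% of all genes), and 4 genes did not overlap between the groups (14.5% of all genes). The median log2 fold change was -0.30 over the 41 genes and 0.02 over all genes. Both comparisons use the same 5 Ctrl mice, so they are given side by side and are not independent of each other. Against Ctrl, 8 genes passed in both, Abcd3 passed in Case alone, 12 in Dapa alone and 20 in neither. The same split over all genes is not given, so these counts have no background beside them. Whether the effect differed between Case and Dapa is answered by Dapa against Case, given below, in which no gene passed.

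**Figure D1:**
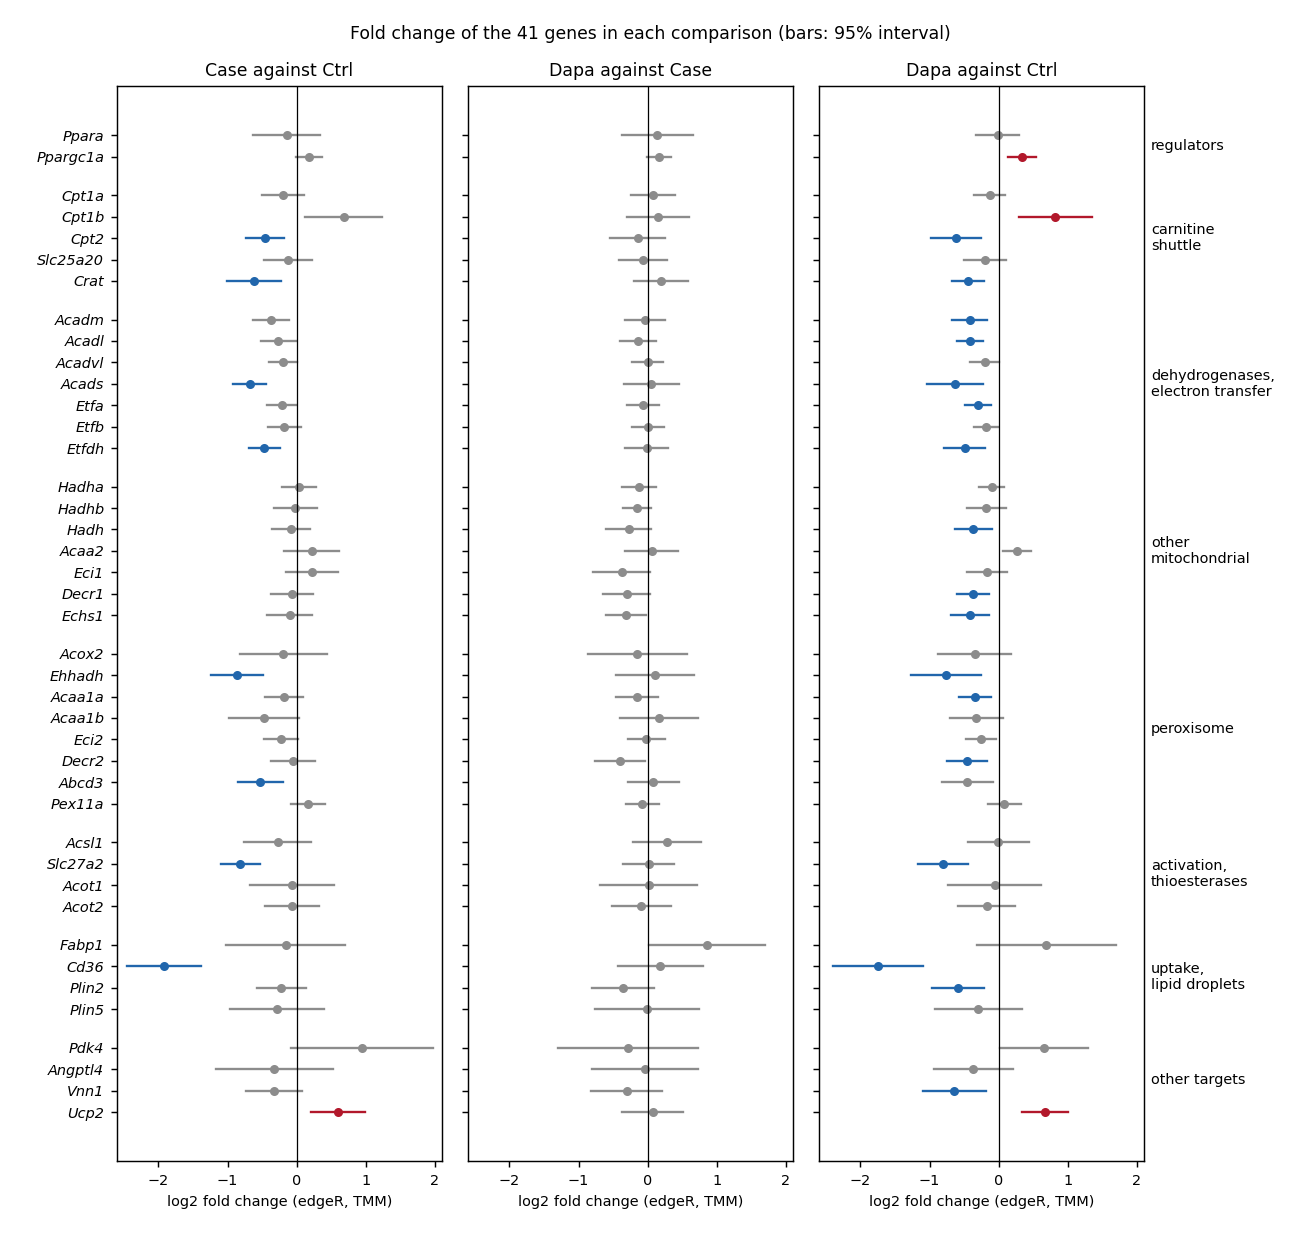
Each row is 1 of the 41 genes, grouped by role, and each panel 1 comparison, with the log2 fold change (x axis) as a point and its 95% interval as a bar. Blue marks genes lower and red genes higher with a q-value under 0.05: 8 and 1 in Case against Ctrl, none in Dapa against Case, and 17 and 3 in Dapa against Ctrl, with Cd36 farthest from 0.

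Of the 2 regulators, Ppargc1a was higher in Dapa than in Ctrl and Ppara passed in no comparison. Ppara, the receptor, had 13.3 ± 0.457 FPKM in Ctrl (SD, n = 5), 12.7 ± 4.74 in Case and 14.1 ± 3.37 in Dapa (n = 6 each). Its log2 fold change was -0.14 ± 0.22 in Case (q = 0.716) and -0.02 ± 0.15 in Dapa (q = 0.938), both against Ctrl. Ctrl mice lay close together for Ppara (12.9 to 14.1 FPKM), while Case mice ranged from 7.27 to 19.3, on both sides of all Ctrl mice. Ppargc1a, the coactivator, was at 11.2, 13.0, 13.5, 16.6 and 13.7 FPKM in the 5 Ctrl mice. In Case its lowest, median and highest values were 14.8, 16.2 and 17.5 FPKM, and in Dapa 17.03, 17.7 and 21.6. Every Dapa mouse was above every Ctrl mouse, and Case lay between and overlapped with both. Its log2 fold change was 0.33 ± 0.09 in Dapa against Ctrl (q = 0.0184) and 0.18 ± 0.09 in Case against Ctrl (q = 0.187), so only the first passed.

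The carnitine shuttle begins with the outer-membrane forms Cpt1a and Cpt1b. Cpt1a, the abundant form here, which sets the rate of entry, was at 144 ± 5.25 FPKM in Ctrl, 132 ± 28.2 in Case and 141 ± 22.3 in Dapa, and passed in no comparison. Cpt1b, the form typical of muscle, measured 4.92, 7.51, 6.11, 14.3 and 7.20 FPKM in Ctrl. It had a lowest, median and highest value of 8.18, 13.7 and 18.2 FPKM in Case, and of 10.8, 13.8 and 23.3 in Dapa. All db/db mice were above 4 of the 5 Ctrl mice, and Ctrl 4 alone reached into their range. Cpt1b had a log2 fold change of 0.82 ± 0.25 in Dapa (q = 0.0258) and 0.68 ± 0.26 in Case (q = 0.102, and called in Case only when Ctrl 4 was left out). Of the 50-base stretches of its annotated transcripts, 78.6% also occur in the overlapping gene Gm44502, so its counts are uncertain.

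Cpt2, which turns the carnitine ester back into acyl-CoA at the inner membrane, was at 21.1, 22.0, 23.1, 24.7 and 25.2 FPKM in Ctrl. Case had a lowest, median and highest level of 13.5, 16.9 and 23.04 FPKM for Cpt2, and Dapa 11.5, 15.1 and 26.1. Most db/db mice lay below Ctrl, except Case 1 within and Dapa 7 above the Ctrl range. Cpt2 fell by 0.47 ± 0.13 on the log2 scale in Case (q = 0.0312) and by 0.62 ± 0.17 in Dapa (q = 0.0150). Crat, which moves short acyl groups between carnitine and coenzyme A, was at 10.0, 10.8, 11.5, 12.5 and 11.9 FPKM in Ctrl, at 4.88, 8.31 and 10.0 in Case (lowest, median, highest) and at 7.27, 8.75 and 11.8 in Dapa. The highest Case mouse lay just under the lowest Ctrl mouse, and Dapa 7 lay within Ctrl. Crat had a log2 fold change of -0.63 ± 0.18 in Case (q = 0.0395) and -0.44 ± 0.11 in Dapa (q = 0.00952). Slc25a20, the translocase that carries the esters inward, had a log2 fold change of -0.12 ± 0.16 in Case (q = 0.652) and -0.19 ± 0.14 in Dapa (q = 0.323).

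The acyl-CoA dehydrogenases and the electron transfer chain behind them had the most calls of the mitochondrial steps in Dapa against Ctrl, but in Case against Ctrl no more than the carnitine shuttle, with 2 each. All 7 genes had negative log2 fold changes against Ctrl in both db/db groups, with medians of -0.27 in Case and -0.41 in Dapa, and 2 passed in Case (against 13.0% of all genes) and 5 in Dapa (against 29.1%). Acads, the short-chain dehydrogenase, was at 41.8, 48.0, 42.5, 38.2 and 50.03 FPKM in Ctrl. It was at 25.7, 27.3 and 36.7 FPKM in Case (lowest, median, highest) and at 22.4, 26.4 and 51.4 in Dapa. Every Case mouse was below every Ctrl mouse, and so was every Dapa mouse but Dapa 7, which was above them all. Acads had a log2 fold change of -0.68 ± 0.11 in Case (q = 0.00276) and -0.64 ± 0.19 in Dapa (q = 0.0237).

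Etfdh, which hands the electrons to ubiquinone, showed the same picture. Ctrl mice had 25.1, 26.1, 25.6, 24.9 and 27.5 FPKM of Etfdh, Case 16.5, 19.4 and 23.5 (lowest, median, highest) and Dapa 14.9, 19.4 and 27.2. All Case mice were below Ctrl, as were all Dapa mice except Dapa 7. Etfdh had a log2 fold change of -0.47 ± 0.10 in Case (q = 0.0124) and -0.50 ± 0.14 in Dapa (q = 0.0164).

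Acadm, Acadl and Etfa passed in Dapa against Ctrl alone. Acadm, the medium-chain dehydrogenase, was at 86.5, 96.7, 105, 94.7 and 108 FPKM in Ctrl, at 64.1, 77.6 and 99.1 in Case (lowest, median, highest) and at 61.3, 74.4 and 98.3 in Dapa. Acadl, the long-chain form, was at 154, 163, 163, 188 and 177 FPKM in Ctrl, at 115, 144 and 197 in Case and at 118, 131 and 159 in Dapa. Both overlapped between the groups, with the Dapa medians below the whole Ctrl range. Their log2 fold changes in Dapa were -0.42 ± 0.12 (q = 0.0182) for Acadm and -0.41 ± 0.09 (q = 0.00505) for Acadl. In Case, Acadm had -0.37 ± 0.12 (q = 0.0543) and Acadl -0.27 ± 0.11 (q = 0.146). Etfa, a subunit of the electron transfer flavoprotein, was at 159, 178, 164, 159 and 167 FPKM in Ctrl, at 126, 153 and 171 in Case and at 124, 147 and 162 in Dapa. For Etfa, 5 of 6 mice in each db/db group lay below all Ctrl mice, and its log2 fold change was -0.30 ± 0.09 in Dapa (q = 0.0222) and -0.22 ± 0.10 in Case (q = 0.163). Its partner subunit Etfb had -0.18 ± 0.11 in Case (q = 0.315) and -0.18 ± 0.08 in Dapa (q = 0.0945), but 44.8% of its 50-base stretches also occur in other genes, mainly Gm45233, so its counts are uncertain. Acadvl, the very-long-chain form, had -0.20 ± 0.09 in Case (q = 0.186) and -0.21 ± 0.10 in Dapa (q = 0.123).

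The steps after the first dehydrogenation had no call in Case. Over Hadha, Hadhb, Hadh, Acaa2, Eci1, Decr1 and Echs1 the log2 fold changes in Case against Ctrl ran from -0.10 to 0.21, with a median of -0.02 and a smallest q-value of 0.448. In Dapa against Ctrl, Hadh, Decr1 and Echs1 passed, all lower. Hadh, the hydroxyacyl-CoA dehydrogenase, was at 107, 110.4, 98.3, 94.95 and 104 FPKM in Ctrl, at 72.7, 107 and 110.3 in Case (lowest, median, highest) and at 62.1, 86.7 and 102 in Dapa. Decr1, an auxiliary enzyme for unsaturated chains, was at 63.4, 62.6, 60.8, 62.5 and 64.8 FPKM in Ctrl, at 44.7, 63.0 and 80.7 in Case and at 40.5, 50.1 and 63.7 in Dapa. Case mice lay on both sides of Ctrl for Decr1, while 4 of 6 Dapa mice lay below all Ctrl mice. Echs1, the enoyl-CoA hydratase, was at 17.3, 16.8, 22.0, 26.6 and 18.2 FPKM in Ctrl, at 16.1, 17.8 and 25.1 in Case and at 13.2, 16.4 and 18.7 in Dapa. The log2 fold changes in Dapa against Ctrl were -0.37 ± 0.12 for Hadh (q = 0.0385), -0.38 ± 0.11 for Decr1 (q = 0.0193) and -0.42 ± 0.13 for Echs1 (q = 0.0259). Acaa2, the mitochondrial thiolase, went the other way at 0.26 ± 0.10 in Dapa (q = 0.0525). Hadha and Hadhb encode the subunits of the trifunctional protein, and passed in no comparison. On the FPKM scale, which allows for gene length, Hadha had 20.4 ± 1.76 and Hadhb 3.76 ± 0.904 in Ctrl. Of the stretches of Hadhb, 19.7% also occur in other genes.

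Among the peroxisomal genes, Ehhadh fell most. Ehhadh encodes the bifunctional enzyme of peroxisomal beta oxidation, and was at 204, 198, 210.0, 195 and 229.6 FPKM in Ctrl. It was at 89.4, 113 and 179 FPKM in Case (lowest, median, highest) and at 70.5, 111 and 231 in Dapa. No Case mouse reached Ctrl, and Dapa 7 was the only Dapa mouse to do so. Ehhadh had a log2 fold change of -0.86 ± 0.17 in Case (q = 0.00765) and -0.76 ± 0.24 in Dapa (q = 0.0284). Abcd3, the membrane carrier for long and branched acyl-CoA, was at 51.3, 53.3, 49.4, 37.6 and 55.1 FPKM in Ctrl, at 29.6, 33.6 and 45.0 in Case and at 29.5, 35.1 and 56.4 in Dapa. Ctrl 4 lay within the Case range, the other Ctrl mice above it. Abcd3 had a log2 fold change of -0.53 ± 0.15 in Case (q = 0.0360) and -0.45 ± 0.17 in Dapa (q = 0.0583).

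Acaa1a and Decr2 passed in Dapa against Ctrl alone. Acaa1a, a peroxisomal thiolase, was at 16.8, 18.3, 16.0, 17.9 and 15.7 FPKM in Ctrl, at 11.6, 15.8 and 19.1 in Case (lowest, median, highest) and at 11.7, 13.6 and 18.2 in Dapa. Decr2, the peroxisomal reductase for unsaturated chains, was at 22.9, 22.0, 21.0, 27.4 and 22.5 FPKM in Ctrl, at 16.0, 22.8 and 31.1 in Case and at 13.8, 17.6 and 23.5 in Dapa. In both genes 4 of 6 Dapa mice were below all Ctrl mice. The log2 fold changes in Dapa were -0.35 ± 0.11 for Acaa1a (q = 0.0286) and -0.46 ± 0.13 for Decr2 (q = 0.0214). Acaa1b, the near copy of Acaa1a, had 124 ± 11.4 FPKM in Ctrl, 93.6 ± 32.1 in Case and 107 ± 32.9 in Dapa, and did not pass. Acaa1a shares 12.9% and Acaa1b 30.5% of its 50-base stretches with other genes, mostly with each other, so counts may be split between them. Acox2, Eci2 and Pex11a did not pass either, with log2 fold changes in Case of -0.19 ± 0.29, -0.23 ± 0.11 and 0.17 ± 0.11.

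Of the genes that activate fatty acids or release them from coenzyme A, Slc27a2 alone passed. Slc27a2, the very-long-chain acyl-CoA synthetase, had the highest FPKM of the 41 genes in every group. Its level was 871, 899, 978, 787 and 1028 FPKM in Ctrl, 428, 553 and 632 in Case (lowest, median, highest) and 342, 560.5 and 709 in Dapa. Neither db/db group overlapped with Ctrl. Slc27a2 had a log2 fold change of -0.82 ± 0.13 in Case (q = 0.00220) and -0.81 ± 0.17 in Dapa (q = 0.00402), and its exact two-sided permutation p was 0.00433 in each, the smallest that 5 against 6 mice can give. Acsl1, the long-chain synthetase, and the thioesterases Acot1 and Acot2 had log2 fold changes between -0.28 and -0.07 in Case and between -0.17 and -0.01 in Dapa, with q-values of 0.447 and above. Acot1 and Acot2 share 19.2% and 27.7% of their stretches with other genes, so reads may be split between them.

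Fatty acid uptake held the widest difference. Cd36, the fatty acid carrier of the cell membrane, was at 53.6, 43.8, 53.9, 24.7 and 40.8 FPKM in Ctrl. It was at 7.83, 12.1 and 19.0 FPKM in Case (lowest, median, highest) and at 7.20, 12.5 and 23.4 in Dapa. Every Ctrl mouse was above every db/db mouse, although Ctrl 4 and Dapa 7 lay close to each other. Cd36 had a log2 fold change of -1.92 ± 0.25 in Case (q = 0.000696) and -1.75 ± 0.30 in Dapa (q = 0.00157), with an exact two-sided permutation p of 0.00433 in each. Both calls of Cd36 held without Ctrl 3, the mouse with the high adipocyte markers, as they did without any other single mouse. Plin2, which coats lipid droplets, was at 13.6, 16.0, 15.1, 13.7 and 13.9 FPKM in Ctrl, at 7.53, 12.9 and 18.2 in Case and at 7.39, 8.82 and 15.8 in Dapa. For Plin2 the Dapa median was below all Ctrl mice while the Case mice spread to both sides. Plin2 had a log2 fold change of -0.59 ± 0.17 in Dapa (q = 0.0234) and -0.22 ± 0.16 in Case (q = 0.393). Plin5, another droplet protein, and Fabp1, a fatty acid binding protein, were the least abundant of the 41 genes in Ctrl, with 29 to 101 counts for Plin5 and 5 to 46 for Fabp1 in a mouse. Plin5 had a log2 fold change of -0.29 ± 0.31 in Case (q = 0.590) and Fabp1 -0.16 ± 0.40 (q = 0.826).

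The remaining PPAR alpha targets did not share a direction. Ucp2, a carrier of the inner mitochondrial membrane, was at 4.32, 4.64, 4.65, 5.86 and 5.06 FPKM in Ctrl, at 4.94, 8.51 and 10.4 in Case (lowest, median, highest) and at 6.05, 7.64 and 12.6 in Dapa. All Dapa mice and 4 of 6 Case mice were above every Ctrl mouse. Ucp2 had a log2 fold change of 0.60 ± 0.18 in Case (q = 0.0463) and 0.67 ± 0.15 in Dapa (q = 0.00727). Case 3, the highest Case mouse for Ucp2, also had the highest macrophage markers (summed FPKM 79.5, other Case mice 14.9 to 28.4) and T and NK cell markers (4.33, others 0.453 to 1.19), and their part in Ucp2 was not tested. The call in Case was lost without Case 1, 2, 3 or 4 or Ctrl 1, 2, 3 or 5. Vnn1, a pantetheinase, was at 44.2, 43.1, 38.1, 60.1 and 42.6 FPKM in Ctrl, at 25.5, 38.8 and 57.3 in Case and at 20.3, 27.8 and 49.8 in Dapa. Most Dapa mice lay below Ctrl, and Vnn1 had a log2 fold change of -0.64 ± 0.21 in Dapa (q = 0.0366) and -0.33 ± 0.19 in Case (q = 0.267). Pdk4, which holds back glucose oxidation by inhibiting pyruvate dehydrogenase, had 10.5 ± 3.05 FPKM in Ctrl, 21.4 ± 19.3 in Case and 17.8 ± 7.58 in Dapa. Case 1 alone reached 58.1 FPKM of Pdk4, and neither Pdk4 (q = 0.208 in Case, 0.109 in Dapa) nor the lipoprotein lipase inhibitor Angptl4 (q = 0.627 and 0.316) passed.

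**Figure D2:**
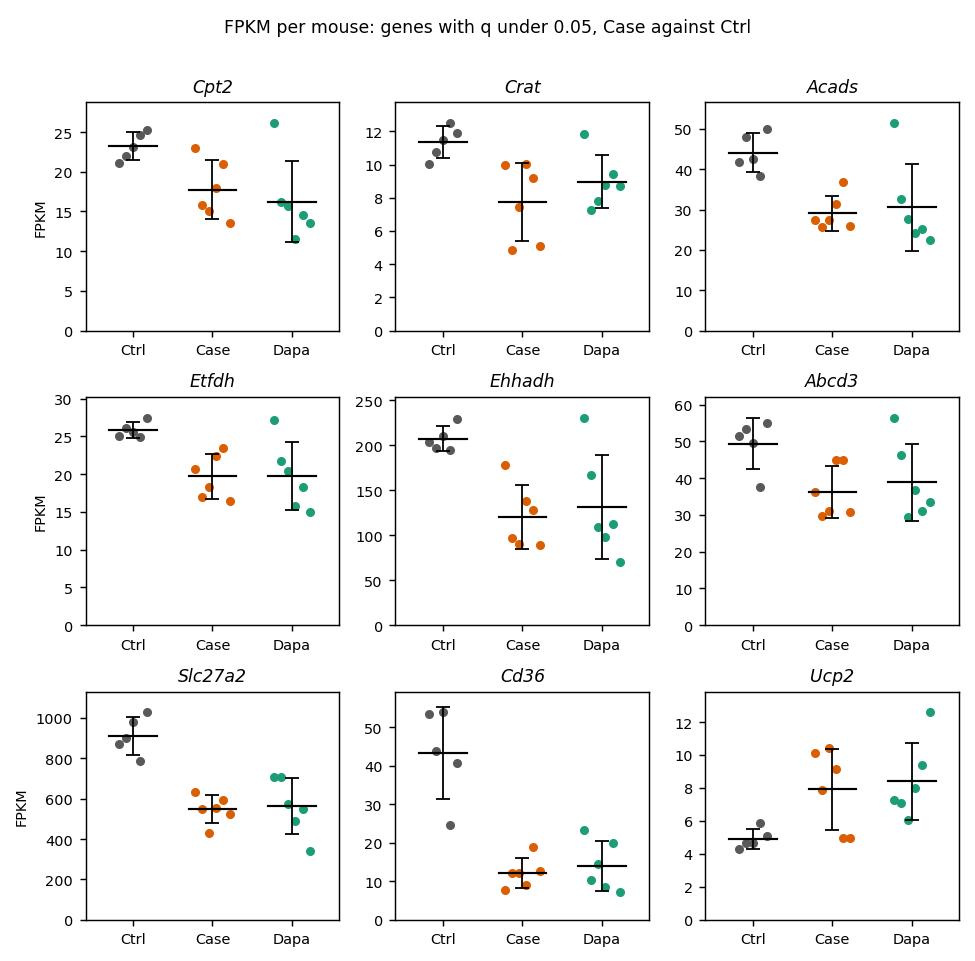
Points are single mice (FPKM, y axis from 0) in Ctrl, Case and Dapa for the 9 genes with a q-value under 0.05 in Case against Ctrl, with the mean and SD as bars. In Crat, Acads, Etfdh, Ehhadh, Slc27a2 and Cd36 all Case points lie below all Ctrl points, and the highest Dapa point in Cpt2, Acads and Ehhadh is Dapa 7.

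**Figure D3:**
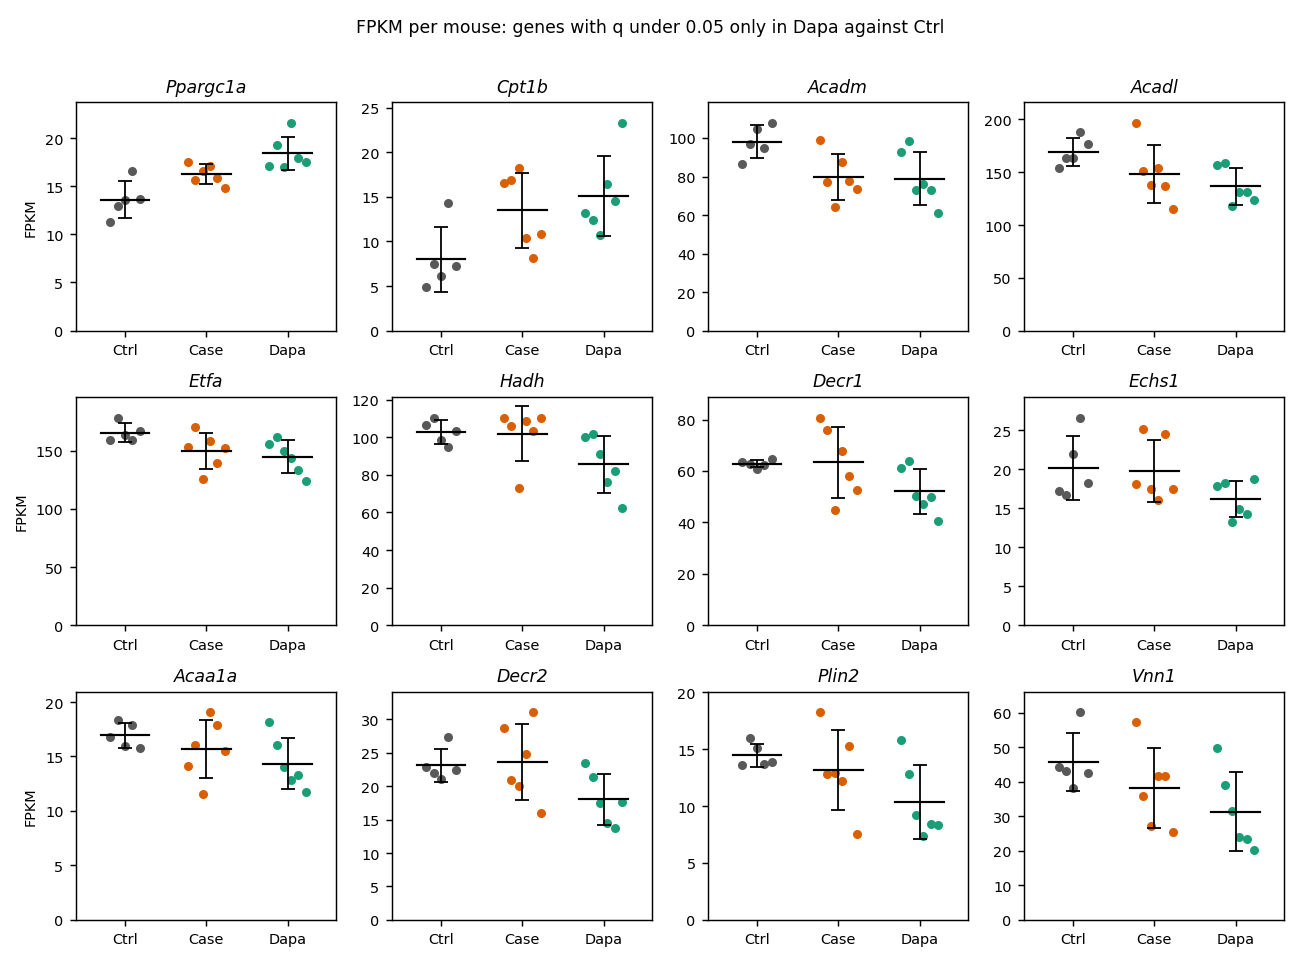
The same plot (FPKM per mouse, mean and SD) shows the 12 genes that passed in Dapa against Ctrl but not in Case against Ctrl. Ppargc1a and Cpt1b are higher and the other 10 lower in Dapa, and in all but Ppargc1a the Dapa and Ctrl points overlap.

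The 5 calls of Case against Ctrl with the smallest q-values depended least on the analysis. Acads, Ehhadh, Slc27a2 and Cd36 kept a q-value under 0.05 in all 26 alternative analyses and Etfdh in 25, whereas Cpt2 kept it in 12, Crat in 13, Abcd3 in 14 and Ucp2 in 12. The count of 9 fell to 5 without Ctrl 1, Ctrl 2, Ctrl 3, Ctrl 5 or Case 2, and rose to 11, all lower, without Case 1, when Acadm, Acadl and Eci2 passed and Ucp2 did not. Over all genes the number called, 1895, fell as well in the fits with 5, to between 1002 (without Ctrl 3) and 1366 (without Case 2), and was 1740 without Case 1. The count of members was also 5 with a term for 7 libraries whose FPKM and counts did not match in 3 entries of the table, where 1219 of all genes were called. The count of 20 in Dapa against Ctrl fell to 12 without Ctrl 1, Ctrl 2 or Ctrl 3 and to 13 without Dapa 10 or Dapa 11, while the 4260 calls over all genes fell to between 3227 and 3392 in these fits. The count of members rose to 23 without Dapa 7 or Dapa 8, where 4690 and 3902 of all genes were called. In that comparison Ppargc1a, Cpt2, Acadl, Etfdh, Slc27a2, Cd36 and Ucp2 passed in all 24 alternatives, and Hadh, with 12, in the fewest.

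Treated and untreated db/db kidneys showed no difference that passed the test. In Dapa against Case none of the 41 genes passed by edgeR's quasi-likelihood test, nor did any gene of the table (0.0% of 14573), and the smallest q-value among the 41 was 0.347. DESeq2, edgeR's exact test, limma and voom also called none of the 41, although DESeq2 called 200 and the exact test 125 other genes. A fit over all 3 groups called 5 other genes, and the fit without Dapa 7 called 7. The study, which used edgeR without naming the test, reported DEGs between Dapa and Case, with immune pathways enriched. The cause of this difference was not tested. An unadjusted p under 0.05 was found for 3 of 41 (against 12.9% of all genes). These were Decr2 (log2 fold change -0.40, 95% interval -0.77 to -0.04), Echs1 (-0.31, -0.60 to -0.03) and Fabp1 (0.85, 0.01 to 1.70). No gene of the 41 had FPKM ranges that did not overlap (0.48% of all genes did). For Cd36 the log2 fold change was 0.18 with an interval of -0.43 to 0.80, for Slc27a2 0.01 (-0.36 to 0.38), for Ehhadh 0.10 (-0.46 to 0.67), and for Acads 0.05 (-0.34 to 0.45). The distance from the log2 fold change to either end of the 95% interval had a median of 0.39 and ran from 0.17 (Ppargc1a) to 1.02 (Pdk4). For 39 of 41 genes, all but Fabp1 and Pdk4, the interval lay within a 2-fold change in either direction.

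db/db mice varied more among themselves than Ctrl mice. On the log2(FPKM + 1) scale the SD was larger in Case than in Ctrl for 34 of 41 genes (82.9%, against 71.8% of all genes tested), and larger in Dapa than in Ctrl also for 34 (against 67.2%). Its median over the 41 genes was 0.14 in Ctrl, 0.32 in Case and 0.31 in Dapa. The same mice stood at the ends again and again. Case 1 was the highest Case mouse in 25 of 41 genes, Dapa 7 the highest Dapa mouse in 21, Dapa 12 the lowest Dapa mouse in 20 and Case 6 the lowest Case mouse in 17. In Ctrl, Ctrl 4 was highest in 20 genes and Ctrl 1 lowest in 15. The mean deviation of the 12 proximal tubule markers from Ctrl, on the same scale, was highest in Dapa 7 (-0.46) and lowest in Dapa 12 (-1.42) among the Dapa mice, while Case 1 had -1.19 within a Case range of -1.30 to -0.51. Case 6 and Dapa 12 also had the highest shares of mitochondrially encoded counts in their groups (27.3% and 27.6%). Case 1 and Dapa 7 were near the low end (20.4% and 19.9%). Other mice went the other way. Case 6 had a marker deviation of -0.72, above the Case median of -0.95. Ctrl 4 had the lowest marker deviation (-0.23) and the highest mitochondrial share (20.4%) of the Ctrl mice. With the mitochondrially encoded genes left out of the fit, 9 of the 41 genes passed in Case against Ctrl (1909 of all 14583). In Dapa against Ctrl 21 passed (4273 of all 14660). Summed liver markers were highest in Case 1, Dapa 7 and Ctrl 4 of their groups and lowest in Dapa 12 among Dapa mice. In Case 6 (71.2 FPKM) and Ctrl 1 (39.6) they were not the lowest. The part of the marker levels and of the mitochondrial share in the spread was not tested.

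**Figure D4:**
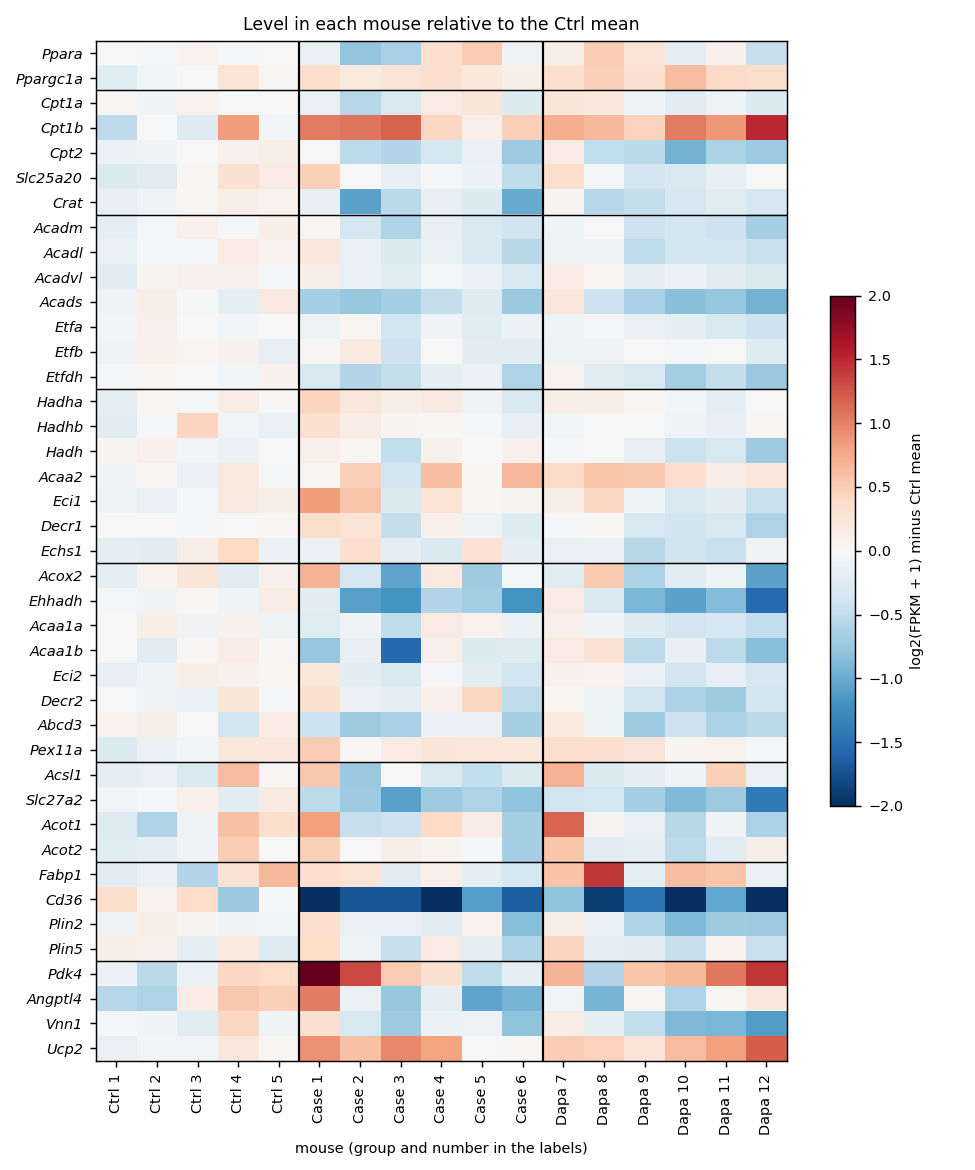
Rows are the 41 genes by role, columns the 17 mice, and colour gives log2(FPKM + 1) minus the Ctrl mean, from -2 (blue) to 2 (red). Cd36, Slc27a2 and Ehhadh are blue across most db/db mice, Dapa 7 is paler than the other Dapa mice in many rows, and Case 1 is the reddest column for Pdk4 and Angptl4.

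Averaged by role, the uptake and lipid droplet genes had the lowest group means, but these are means over 4 genes, of which Cd36 alone passed in Case. By the median log2 fold change in Case, these genes (-0.26) and the dehydrogenases and electron transfer genes (-0.27) lay side by side. The mean deviation of the uptake and lipid droplet genes from Ctrl per mouse was -0.87 to -0.32 in Case and -0.92 to 0.08 in Dapa, against -0.09 to 0.08 in Ctrl. For the dehydrogenases and electron transfer genes it was -0.44 to -0.10 in Case and -0.54 to 0.01 in Dapa, and for the peroxisomal genes -0.66 to 0.01 and -0.65 to 0.11. The other mitochondrial enzymes reached from -0.23 to 0.29 in Case, on both sides of Ctrl. The proximal tubule markers lay at -1.30 to -0.51 in Case and -1.42 to -0.46 in Dapa on that scale.

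**Figure D5:**
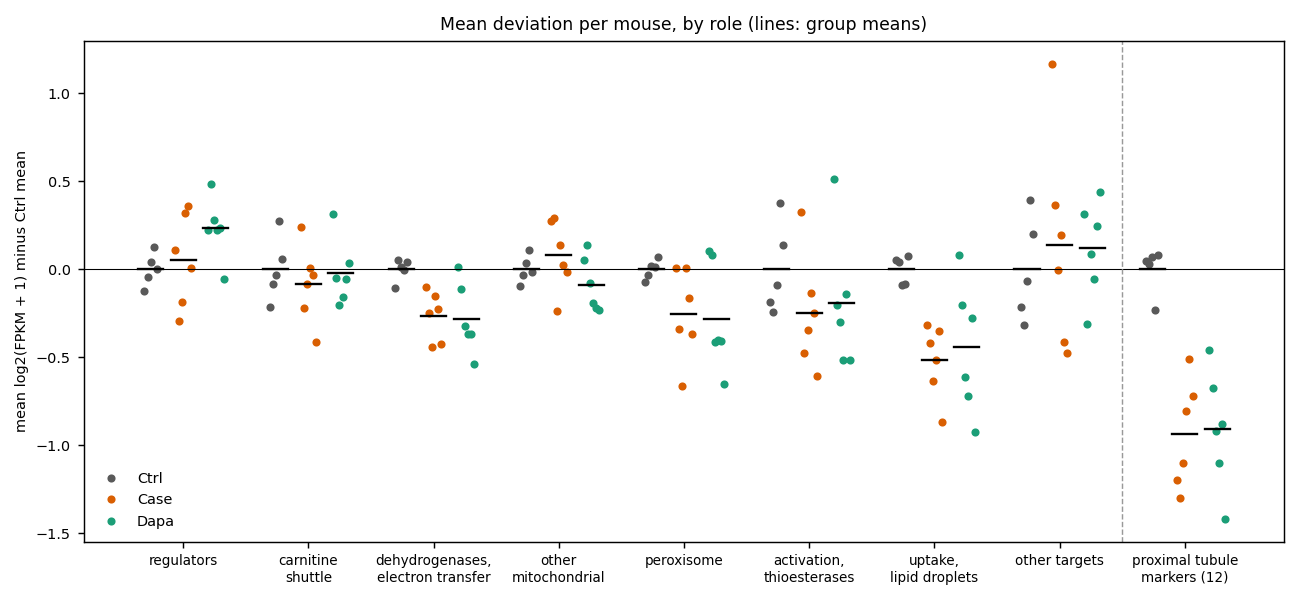
Each point is 1 mouse, as the mean over the genes of a role of log2(FPKM + 1) minus the Ctrl mean (y axis), with lines for group means and the 12 proximal tubule markers at the right. Case and Dapa points lie below 0 for dehydrogenases and electron transfer (except Dapa 7) and for uptake and lipid droplets (except Dapa 7), and lowest for the markers.

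PPAR alpha and RXR bind direct repeats of the half-site AGGTCA with a single base between, so the promoter letters of the genes were searched on both strands. RefSeq windows of 300 bases (250 before and 50 after the start, GRCm38.p6) were at hand for 35 of the 41 genes, in 39 windows. The full repeat AGGTCANAGGTCA was in none of the 39, and in 0.0396% of all 32851 windows. The looser repeat AGGNCANAGGNCA was in Fabp1 alone among the 41 (0.381% of all windows), and the half-site alone, which also counts inside a repeat, was in 10 of 39 windows (25.6%, against 16.3% of all). The half-site was found in Slc27a2, Acadm, Plin2, Cd36, Fabp1, Echs1, Acadvl, Plin5 and Cpt1a. A match is a description of letters and not a site. Below are the bases before the start, outside annotated exons, of Fabp1, with the looser repeat, and of the genes that passed against Ctrl and hold the half-site, 5′ to 3′ on the strand of the gene with the match in capitals. In Slc27a2 all 250 bases fall in annotated exons and are not shown.
Cd36, chr5:17835897-17836146, minus strand: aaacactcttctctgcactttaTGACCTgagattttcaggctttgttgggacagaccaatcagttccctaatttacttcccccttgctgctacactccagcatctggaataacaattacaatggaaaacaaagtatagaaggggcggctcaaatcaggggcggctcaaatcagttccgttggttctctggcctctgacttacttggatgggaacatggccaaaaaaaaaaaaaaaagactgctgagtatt
Acadm, chr3:153944644-153944893, minus strand: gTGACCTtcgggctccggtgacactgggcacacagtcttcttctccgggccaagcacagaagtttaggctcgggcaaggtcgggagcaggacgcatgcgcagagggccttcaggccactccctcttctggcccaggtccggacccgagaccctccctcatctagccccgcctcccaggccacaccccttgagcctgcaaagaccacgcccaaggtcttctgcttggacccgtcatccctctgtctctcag
Plin2, chr4:86670061-86670309, minus strand: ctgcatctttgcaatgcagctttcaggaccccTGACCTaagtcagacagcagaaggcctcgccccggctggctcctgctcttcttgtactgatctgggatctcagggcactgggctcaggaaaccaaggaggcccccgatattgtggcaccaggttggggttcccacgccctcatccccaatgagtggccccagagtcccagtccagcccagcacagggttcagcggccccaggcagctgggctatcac
Echs1, chr7:140116477-140116671, minus strand: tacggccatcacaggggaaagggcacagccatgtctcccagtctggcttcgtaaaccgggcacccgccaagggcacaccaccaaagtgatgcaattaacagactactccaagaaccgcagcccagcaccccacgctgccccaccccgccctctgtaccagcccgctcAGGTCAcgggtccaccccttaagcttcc
Fabp1, chr6:71199629-71199826, plus strand: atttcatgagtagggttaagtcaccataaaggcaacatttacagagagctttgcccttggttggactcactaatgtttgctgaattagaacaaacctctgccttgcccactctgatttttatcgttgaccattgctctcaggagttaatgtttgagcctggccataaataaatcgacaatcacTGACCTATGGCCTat
Counted from the start, the first base of the half-site is at -228 in Cd36, -249 in Acadm, -218 in Plin2 and -83 in Echs1, and that of the looser repeat in Fabp1 at -67. The Cd36 window belongs to a start inside the gene, since longer annotated transcripts begin upstream of it. Ehhadh and Acads, which fell as well, hold none of these letters in their windows.

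Further genes around the pathway, outside the 41, were counted in the same comparisons, in which 6.91% of all genes were lower and 6.09% higher in Case, and 14.9% lower and 14.2% higher in Dapa, than in Ctrl. Of 22 further oxidation genes, 8 were lower in Case and 16 in Dapa and none was higher. Their median log2 fold changes were -0.33 and -0.39. Most of these genes are mitochondrial, and some serve amino acid breakdown rather than fatty acids. Of 36 further peroxisomal genes tested, 8 were lower in Case and 20 in Dapa and none was higher (medians -0.19 and -0.35). The peroxisomal racemase Amacr was at 86.6 ± 19.5 FPKM in Ctrl and 32.0 ± 5.36 in Case (log2 fold change -1.51 ± 0.18, q = 0.000441). Of the genes of microsomal omega oxidation, 4 of 10 tested were lower in Case and 3 of 9 in Dapa, and none was higher. Among them, the fatty acid hydroxylase Cyp4a12a was at 97.0 ± 11.9 FPKM in Ctrl and 19.4 ± 8.48 in Case (-2.40 ± 0.27, q = 0.000280), and Cyp4b1 was at 748 ± 162 FPKM in Ctrl and 129 ± 84.8 in Case (-2.61 ± 0.36, q = 0.00102). Among 28 genes of uptake, activation and lipid droplets, 5 were lower and 1 higher in Case, and 10 lower and 2 higher in Dapa. Acsm3, a medium-chain acyl-CoA synthetase, was at 44.4 ± 15.6 FPKM in Ctrl and 3.09 ± 0.797 in Case (-3.93 ± 0.30, q = 3.65e-05). Of 23 nuclear receptors and coregulators, Rxrg alone passed in Case, at 0.342 FPKM or less on average in every group, while 3 were lower and 2 higher in Dapa. Lower in Dapa were the nuclear receptor Hnf4a (-0.57 ± 0.14, q = 0.00883) and the mitochondrial deacetylase Sirt3 (-0.52 ± 0.13, q = 0.0113), which had -0.38 ± 0.13 (q = 0.0616) and -0.28 ± 0.12 (q = 0.145) in Case. Of 17 genes outside the pathway, PPAR alpha targets or relatives of such targets, 4 were higher and 4 lower in Case. In Dapa 3 were higher and 7 lower. Pdk1, a relative of Pdk4, was at 4.16 ± 0.564 FPKM in Ctrl and 10.2 ± 1.63 in Case (1.23 ± 0.13, q = 0.000221). Pdk3, another relative, was at 15.2 ± 1.96 and 7.28 ± 1.71 (-1.15 ± 0.15, q = 0.000813). In Dapa against Case none of these genes passed.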

How the data were processed

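Whole-kidney RNA from 17 mice was sequenced, 1 library per mouse, and groups were taken from the labels. The authors aligned reads to mm10 with HISAT2, used Stringtie to count per gene, and deposited a table of counts and FPKM for 22561 genes. The deposited counts are not normalized, and the deposited FPKM equalled count divided by total counts and gene length within 0.00178%. Left out were 3 genes whose entries run over 2 lines, because the FPKM of these did not follow from the counts in 7 libraries (Ctrl 1, 3 and 4, Case 1, Dapa 10, 11 and 12). The lowest total was 13039535 counts.

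Counts of each pair of groups were filtered on low values, scaled by TMM and tested with edgeR's quasi-likelihood test (edgeR 4.0.16, R 4.3.3), with Benjamini-Hochberg q-values over all genes and a threshold of 0.05. The methods were tested on simulated data. Exact permutation tests compared log2(FPKM + 1). DEGs also needed a fold above 2. Alternatives were DESeq2 1.42.0, limma 3.58.1 and voom, edgeR's exact test, other scalings, filters and pseudocounts, thinned counts, a term for the 7 libraries, a replicate block, and each mouse left out. For genes that passed in any comparison, levels were given for each Ctrl mouse and as the lowest, median and highest in Case and Dapa, and genes of each further list were named from among the 3 with the smallest p in any comparison. The genes and lists were chosen with earlier results of these data known. Shared 50-base stretches were counted in annotated transcripts.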

Additional observations from a re-analysis of the deposited data

Results flagged for a closer look

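Of 123 sets of values (41 genes in 3 groups), 12 held a mouse whose gap to the nearest of the others was above Dixon's 95% critical value, and chance gives about 1 in 20. Ctrl 4 was the highest Ctrl mouse for Cpt1b (14.3 FPKM, others 4.92 to 7.51), Acsl1 (32.5 FPKM, others 16.7 to 21.3), Acot2 (17.4 FPKM, others 9.99 to 11.8) and Vnn1 (60.1 FPKM, others 38.1 to 44.2). Dapa 7 was the highest Dapa mouse for Cpt2 (26.1 FPKM, others 11.5 to 16.1), Acads (51.4 FPKM, others 22.4 to 32.6) and Acot1 (66.6 FPKM, others 18.3 to 30.4). Ctrl 3 was the highest Ctrl mouse for Ppara (14.1 FPKM, others 12.9 to 13.2) and Hadhb (5.33 FPKM, others 3.08 to 3.60). Hadh was lowest in Case 3 (72.7 FPKM, others 103 to 110.3), Angptl4 highest in Case 1 (22.9 FPKM, others 4.67 to 9.68) and Fabp1 highest in Dapa 8 (5.17 FPKM, others 1.04 to 2.55).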

How the results depend on the processing

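No log2 fold change of a called gene turned its sign in any alternative. In Case against Ctrl the 9 genes called became 5 with limma on log2(FPKM + 1) or log2(FPKM + 0.1), 5 with a term for the 7 libraries (over all genes 1767, 1834 and 1219, against 1895), and 5 to 11 when 1 mouse was left out (5 without Ctrl 1, 2, 3 or 5 or Case 2). Only 1 met the DEG rule with a fold above 2. With the replicate number as a block in Ctrl and Case 1 to 5, 4 genes were called (699 over all genes), against 6 (1615) in these 10 mice without the block, a fit chosen after seeing the data. The numbers did not pair the mice, since deviations of same-numbered mice correlated between -0.0536 and 0.0022, and Dapa mice share no number with the others. In Dapa against Ctrl the 20 genes became 12 to 23 when 1 mouse was left out (over all genes 3227 to 4690, against 4260). There were 12 without Ctrl 1, 2 or 3, 13 without Dapa 10 or 11, and 1 under the DEG rule. Dapa against Case had 0 in every alternative. The cause of these shifts was not tested, beyond the smaller number of mice in the fits that left 1 out. Depth limits Fabp1 most, with 5 to 46 counts.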
